A study of Drosophila melanogaster with 10 samples.

Results

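The regions described here are places in the genome of Kc167 cells where the deposited peak lists hold the RNA-binding protein Shep and none of the other 4 mapped proteins. Peaks of the 5 lists that overlapped by at least 1 bp were joined into regions, which gave 5224 regions in all, and 812 of them held a Shep peak with no peak of Rump, Mod(mdg4)2.2, Su(Hw) or CP190. They are called Shep-only regions below. They were compared with the other 566 regions with Shep, which also held at least 1 of the other proteins, and with the 3846 regions without Shep. Because the members were chosen by the presence and absence of peaks, their number, their lack of overlap and their Shep values are descriptions and carry no test.

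The positions come from ChIP-seq, the sequencing of DNA recovered with an antibody to a chromatin protein, in Kc167, an established Drosophila melanogaster line of embryonic origin, kept at 25 °C. Shep was precipitated with a guinea pig and with a rabbit antibody (2 libraries), and the other lists came from 2 libraries each for Rump (antibodies 10c3 and 5g4) and Mod(mdg4)2.2 (guinea pig and rabbit) and from 1 library each for Su(Hw) and CP190 (both rabbit). Chromatin preparation a, with its input, served for Shep, Rump, Mod(mdg4)2.2 and Su(Hw), while CP190 came from preparation b with an input of its own. No group was treated, all are of 1 cell line, and each protein has 1 deposited list, so the spread between antibodies or cultures cannot be seen and every interval below covers counting error only. Intervals of shares are Wilson 95% intervals, and those of odds ratios are conditional 95% intervals. The depth of the libraries is unknown.

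Shep (Alan shepard) carries RNA recognition motifs and is known as a negative regulator of the gypsy chromatin insulator in the nervous system. The gypsy insulator is built around Su(Hw), which binds DNA through its zinc fingers, together with Mod(mdg4)2.2 and CP190, which contain BTB domains through which insulator proteins interact. Rump (Rumpelstiltskin) also binds RNA and is related to hnRNP M. A Shep-only region is therefore a place where Shep was recorded without any recorded part of that complex. Positions are given in build dm3, counted from 1, and the genes and bases at these positions were not analysed here.

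Shep-only regions were the larger part of the Shep map with the lists as deposited. They made up 812 of the 1378 regions with Shep (58.9%, 56.3 to 61.5), and they contained 834 of the 1443 Shep peaks (57.8%, 55.2 to 60.3). As single-protein regions they were fewer than those of CP190 (1003) and more numerous than those of Su(Hw) (615), Mod(mdg4)2.2 (298) and Rump (47). Rump-only regions are not among the single-protein regions compared below. The number depends on how many weak Shep peaks are admitted. It was 520 with Shep peaks of a q-value (a p-value adjusted for many tests) up to 0.05, 371 with the upper part of the Shep list by score, cut at its median, and 321 with peaks of q up to 0.01. The share of Shep-holding regions that were Shep-only was 54.2% (51.0 to 57.3), 52.3% (48.6 to 55.9) and 52.6% (48.7 to 56.6) in the same order. In the last 2 settings the intervals do not show that Shep-only regions were the larger part.

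Nearly all of these regions were a single narrow peak. All Shep peaks are 484 bp wide as deposited, and 790 of the 812 regions consisted of 1 such peak. The other 22 regions (2.71%, 1.80 to 4.07) joined 2 overlapping Shep peaks, against 40 of the 566 regions with another factor (7.07%, 5.23 to 9.48) that held more than 1. Those shared regions are much wider, with a median of 2010 bp against 484 bp, and Su(Hw) and CP190 peaks have median widths of 2106 and 2025 bp. The part of width in this difference was not tested. In the 22 joined Shep-only regions the midpoints of the 2 peaks lay between 199 and 385 bp apart, with a median of 272 bp. The higher of the 2 peaks had a median score of 104.3, close to the median of 103.4 (quartiles 89.2 and 134.0) of the 790 regions with 1 peak. The joined region of highest score was chr3L:223941-224719, with scores of 170.4 and 96.8.

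The Shep signal was lower in Shep-only regions than at the shared sites, and the ranges overlapped widely. The score is the authors' own value per peak, in the seventh column of the Shep list, and its scale is not given in the sources used here. Shep peaks in Shep-only regions had a median score of 103.1 (quartiles 89.2 and 132.6, range 82.3 to 228.1, 834 peaks), against 113.5 (quartiles 94.6 and 143.9, range 82.3 to 314.8, 609 peaks) in regions with another factor. The lowest values of both kinds lay at the floor of the list, while the upper ends differed. The 17 Shep peaks of highest score, above 228.1, were all in regions with another factor, and 7 of those 17 lay in regions with Mod(mdg4)2.2 as the sole partner and 4 in regions with CP190 as the sole partner.

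**Figure D1:**
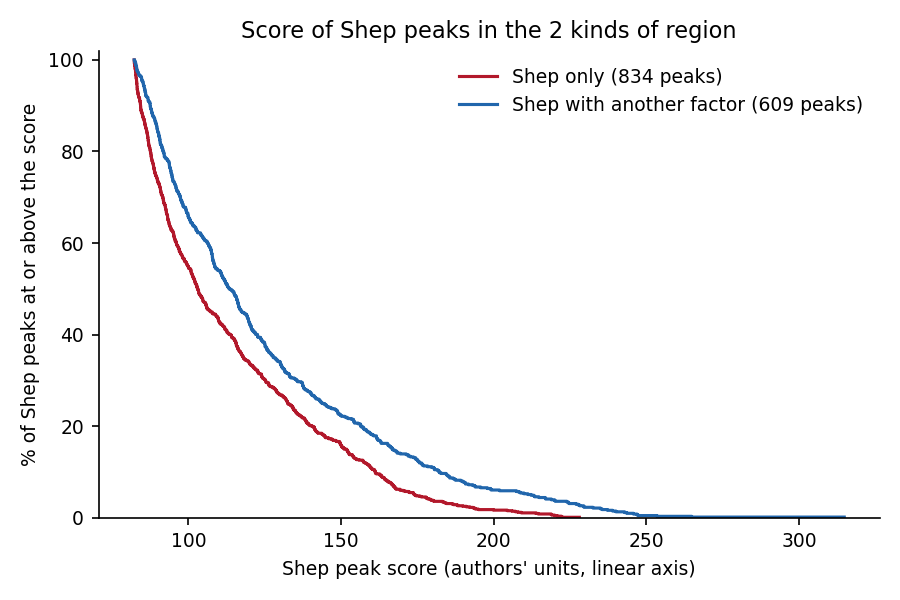
Percent of Shep peaks (vertical axis) at or above each peak score (horizontal axis, linear, authors' units), for the 834 peaks in Shep-only regions and the 609 peaks in regions with another factor. The Shep-only line lies below the other line through most of its course and ends at 228.1, while the other ends at 314.8.

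The score difference was unequal between kinds of partner. Shep peaks in regions with Mod(mdg4)2.2 as the sole partner had a median of 130.8 (136 peaks), those with Mod(mdg4)2.2 and Su(Hw) a median of 121.9 (39 peaks), and those with Su(Hw) alone a median of 111.7 (39 peaks). Shep peaks with CP190 as the sole partner had a median of 106.6 (200 peaks), and those with Mod(mdg4)2.2, Su(Hw) and CP190 but not Rump had 103.5 (62 peaks). Shep peaks in regions with all 5 proteins had a median of 116.5 (29 peaks), and those with Mod(mdg4)2.2 and CP190 alone had 115.7 (77 peaks). The Shep-only median of 103.1 was thus next to those of the complete insulator combination without Rump and of CP190 alone, and furthest from that of Mod(mdg4)2.2 alone, among combinations with at least 20 peaks.

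Statistical support of the single peaks followed the scores. The q-values are those deposited by the authors. Of the Shep peaks in Shep-only regions 528 of 834 had a q up to 0.05 (63.3%, 59.98 to 66.5), where the whole Shep list has 68.5%, and 322 had a q up to 0.01 (38.6%, 35.4 to 42.0), where the whole list has 42.8%. The remaining 306 peaks (36.7%, 33.5 to 40.0) had a q above 0.05, against 148 of 609 peaks (24.3%, 21.1 to 27.9) in regions with another factor. The lowest q of the list, 0.00118, was held by 224 of the Shep-only peaks (26.9%, 24.0 to 30.0) and by 202 of the peaks with another factor (33.2%, 29.5 to 37.0). Shep-only regions thus held peaks at the lowest q of the list as well as peaks past 0.05.

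Ordered by score, the Shep-only share was lowest among the strongest Shep peaks and highest among the weakest. In the decile of highest score 56 of 145 peaks were in Shep-only regions (38.6%, 31.1 to 46.7). In deciles 2 to 7 the share lay between 50.7% and 60.4% with no steady course. It was 63.2% in decile 8, 67.4% in decile 9 and 75.7% (68.1 to 82.0) in the decile of lowest score, where 109 of 144 peaks were in Shep-only regions.

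**Figure D2:**
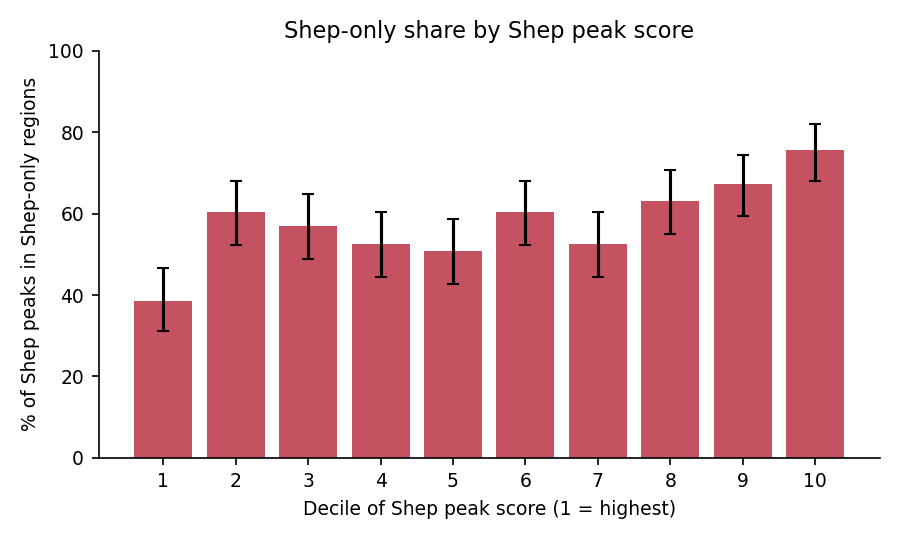
Percent of Shep peaks that lay in Shep-only regions (bars, vertical axis from 0) by decile of Shep peak score, where decile 1 is the highest. Error bars are Wilson 95% intervals over 144 or 145 peaks, and the bars run from 38.6% in decile 1 to 75.7% in decile 10 with a flat stretch between.

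The 10 Shep-only regions of highest score were spread over 5 chromosome arms, and each is a single peak with the lowest q of the list. The highest, chr3R:4671705-4672188, had a score of 228.1 and lay 15651 bp from the nearest peak of another list, which is a Su(Hw) peak. The next was chr3R:16655995-16656478 with a score of 222.4, at 8401 bp from a Su(Hw) peak and 1834 bp from another region with Shep. The third was chr2L:523545-524028 with 222.1, at 15592 bp from a CP190 peak. These regions were far from the insulator proteins relative to their own width.

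The fourth, chrX:6762282-6762765, had a score of 220.8 and another Shep region 746 bp away, with the nearest other list, Mod(mdg4)2.2, at 5025 bp. The fifth, chr2R:14742307-14742790, had a score of 219.96, a further Shep region at 2394 bp and a Su(Hw) peak at 8238 bp. A further group was on 2L, at chr2L:18572003-18572486 (score 219.0), chr2L:12822500-12822983 (218.8) and chr2L:13203836-13204319 (213.8), and the last of these was the closest of the 10 to another list, with a Su(Hw) peak at 1356 bp. The remaining regions were chr3L:8668858-8669341 (214.6) and chrX:10495402-10495885 (209.1), at 22664 and 18823 bp from CP190 peaks. All 10 regions were thus more than 1 kb from every peak of the other lists.

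At the other end were chr3L:1240558-1241041, chr2R:16527588-16528071 and chrX:2200504-2200987, with scores of 82.27, 82.29 and 82.30 and q-values of 0.1549, 0.1552 and 0.1553. The region on 2R lay 169 bp from a CP190 peak, and those on 3L and X lay 12008 bp from a Su(Hw) peak and 5161 bp from a Mod(mdg4)2.2 peak. All 3 had a q above 0.05.

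Most Shep-only regions lay more than 1 kb from every peak of the other lists, and most had such a peak within 10 kb. The distances expected of randomly placed regions were not computed. The distance from the edge of a Shep-only region to the nearest peak of any other list had a median of 6786 bp (quartiles 2403 and 13966, range 17 to 354074, 812 regions). Within 500 bp lay 56 regions (6.90%, 5.35 to 8.85), within 1 kb 104 (12.8%, 10.7 to 15.3), and within 10 kb 519 (63.9%, 60.6 to 67.1). The rule sets a distance above 0 for every member, and the rest of this distribution is a description.

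Among the 4 other proteins CP190 was the closest and Rump by far the most distant. The median distance was 10854 bp to CP190 (809 regions on sequences with a CP190 peak), 17243 bp to Su(Hw) (811), 18059 bp to Mod(mdg4)2.2 (811) and 122215 bp to Rump (812). Within 10 kb CP190 was found for 46.6% (43.2 to 50.05) of the regions, Mod(mdg4)2.2 for 33.0% (29.9 to 36.4), Su(Hw) for 32.3% (29.2 to 35.6) and Rump for 7.14% (5.57 to 9.12). The Rump list has 338 peaks, against 2742 for CP190, 2678 for Mod(mdg4)2.2 and 2369 for Su(Hw), and a short list is on average farther away. Between lists of like size, CP190 peaks are also wider than the 304 bp of Mod(mdg4)2.2 peaks. Su(Hw) peaks are wider still, with a median width of 2106 bp where CP190 peaks have 2025 bp. The median distance was 17243 bp to Su(Hw) peaks and 18059 bp to Mod(mdg4)2.2 peaks. The part of peak width in these distances was not tested.

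**Figure D3:**
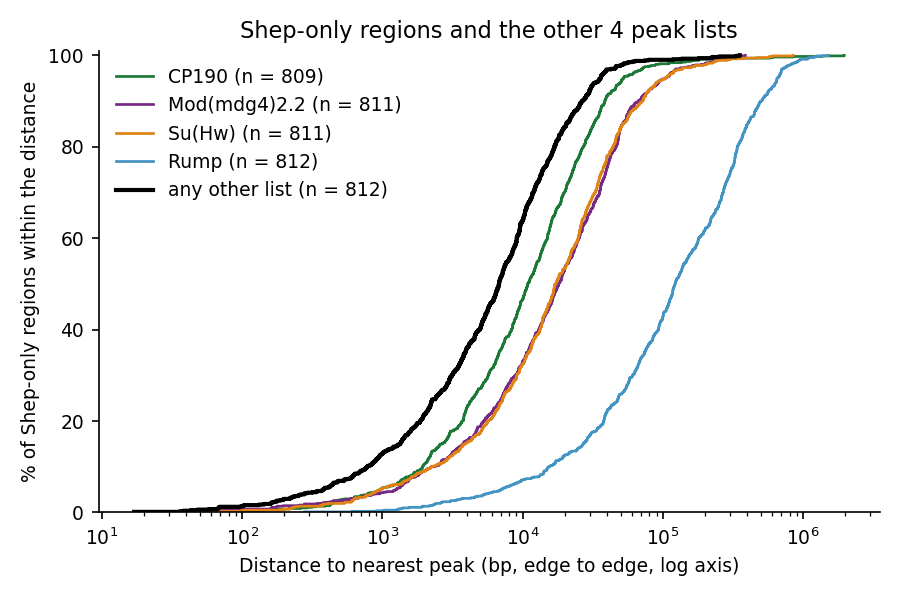
Percent of Shep-only regions (vertical axis) with a peak of each other list within a given distance, edge to edge (horizontal axis, log scale, bp). The line for CP190 lies left of those for Su(Hw) and Mod(mdg4)2.2, which run together with medians of 17243 and 18059 bp, and the line for Rump lies far to the right with a median of 122215 bp.

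Among all other regions, the one nearest to a Shep-only region was most often a CP190-only region. This was so for 230 of 812 (28.3%), whereas CP190-only regions are 22.7% of the 4412 other regions. A region with Mod(mdg4)2.2, Su(Hw) and CP190 but neither RNA-binding protein was nearest for 105 (12.9%, against 17.3% of the other regions), and one with only Mod(mdg4)2.2 and Su(Hw) for 50 (6.16%, against 11.02%). Counted by protein, the nearest region held Mod(mdg4)2.2 in 45.1% of cases (41.7 to 48.5) where 54.7% of the other regions do, Su(Hw) in 44.8% (41.4 to 48.3) where 53.6% do, and CP190 in 63.7% (60.3 to 66.9) where 61.7% do. It held Shep in 19.8% (17.2 to 22.7), where 12.8% of the other regions do. These are positions along the same chromosomes, and neighbouring regions are not independent.

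Measured to the 1056 regions that hold Mod(mdg4)2.2, Su(Hw) and CP190 together, the Shep-only regions lay at distances like those of CP190-only and Su(Hw)-only regions. Such a complete region lay within 10 kb of 126 Shep-only regions (15.5%, 13.2 to 18.2), against 13.2% (11.2 to 15.4) of CP190-only regions, 16.3% (13.6 to 19.4) of Su(Hw)-only regions and 23.2% (18.7 to 28.3) of Mod(mdg4)2.2-only regions. The median distance was 41152 bp from Shep-only regions, 45563 bp from CP190-only regions, 44440 bp from Su(Hw)-only regions and 28992 bp from Mod(mdg4)2.2-only regions, each over the regions on a sequence with a complete region. The interval for Shep overlapped those for CP190 and Su(Hw) and ended just below that for Mod(mdg4)2.2.

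The median Shep score of Shep-only regions lay within a narrow range over the distances to the other proteins up to 50 kb, while the share of peaks at the lowest q was larger in the classes from 1 to 50 kb than next to another list. Peaks up to 1 kb from another list had a median score of 101.1 (112 peaks), those at 1 to 5 kb 103.4 (227), those at 5 to 10 kb 101.7 (194), those at 10 to 20 kb 103.8 (170) and those at 20 to 50 kb 108.7 (112). The 19 peaks beyond 50 kb had a median of 94.3. Across the 834 peaks, score and distance had a Spearman rho of 0.04, a value that describes peaks of 1 list on shared chromosomes. In the 6 classes, from the nearest to the farthest, the share with a q above 0.05 was 41.1% (32.4 to 50.3), 33.9% (28.1 to 40.3), 39.7% (33.1 to 46.7), 33.5% (26.9 to 40.9), 35.7% (27.4 to 44.9) and 47.4% (27.3 to 68.3), with overlapping intervals. The share at the lowest q was 17.0% (11.1 to 24.98), 26.9% (21.5 to 33.0), 27.8% (22.0 to 34.5), 30.0% (23.6 to 37.3), 32.1% (24.2 to 41.3) and 15.8% (5.52 to 37.6). The intervals of neighbouring classes overlapped, and the difference between classes was not tested.

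**Figure D4:**
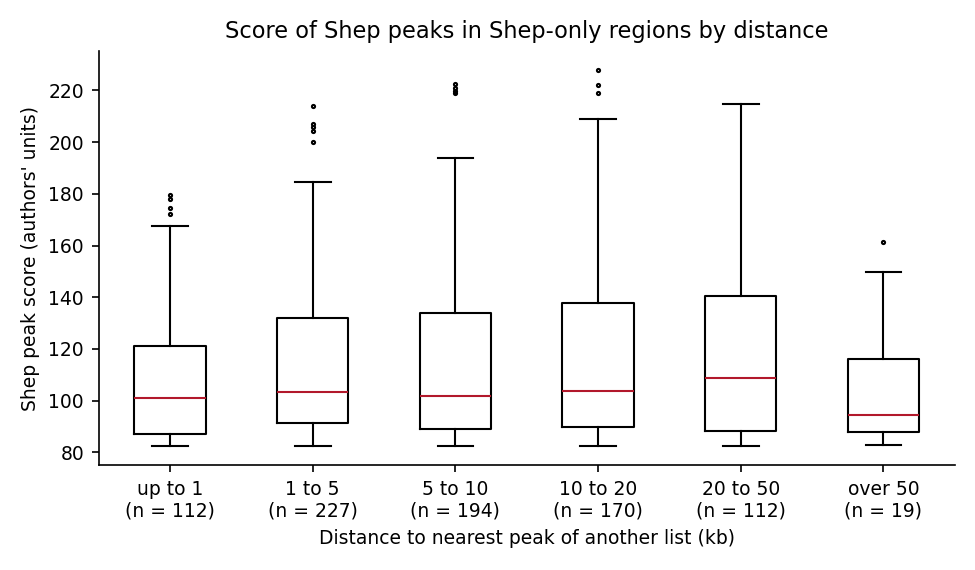
Scores of the 834 Shep peaks in Shep-only regions (vertical axis, authors' units) by distance to the nearest peak of another list (horizontal axis, kb). Boxes give quartiles with the median in red, whiskers reach to 1.5 times the interquartile range and dots are peaks beyond them. The medians lie between 101.1 and 108.7 in the classes up to 50 kb and at 94.3 in the class beyond, which has 19 peaks.

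Few members sat close to the boundary of the rule. A gap under 100 bp was found for 11 Shep-only regions (1.35%), and an overlap under 100 bp for 15 of the 566 regions with another factor (2.65%). Just inside the rule were chr2R:16158346-16158829, at 17 bp from a Mod(mdg4)2.2 peak with a Shep score of 82.8, chrX:1128819-1129683, a joined region at 36 bp from a CP190 peak with a score of 157.1, and chrX:19530908-19531391, at 38 bp from a CP190 peak with a score of 83.02. Just outside it were Shep peaks at chrX:5611498-5611981 (8 bp of overlap with a Su(Hw) peak, score 137.4), chr2R:8476878-8477361 (9 bp with Mod(mdg4)2.2, score 167.6) and chr3L:11545930-11546413 (11 bp with Mod(mdg4)2.2, score 199.2). One Shep peak was in a region with another factor only through a further Shep peak that it overlapped.

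Peak width sets part of the membership. With all peaks resized to 300 bp the Shep-only regions numbered 988 (70.0% of the regions with Shep), and with all resized to 2000 bp 674 (52.0%). Without the CP190 list there were 1021, without Mod(mdg4)2.2 946, without Su(Hw) 868 and without Rump 813, so CP190 was the protein that removed most Shep regions from the set and Rump removed 1.

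The chromosomal position of the regions was not used by the rule and was tested. Relative to the regions without Shep, Shep-only regions were more often on 2R. They were on 2R in 189 of 812 cases (23.3%, 20.5 to 26.3), against 661 of 3846 (17.2%, 16.0 to 18.4), an odds ratio of 1.46 (95% interval 1.21 to 1.76, Fisher's exact test, two-sided, adjusted p = 0.00106 over 14 tests). The same share among Shep regions with another factor was 22.1% (18.9 to 25.7), and the 2 kinds of Shep region did not differ past the threshold (odds ratio 1.07, 0.822 to 1.40, adjusted p = 0.824, Fisher's exact test). The regions without Shep were not uniform, with 20.3% (18.0 to 22.9) on 2R for CP190-only, 16.8% (13.0 to 21.4) for Mod(mdg4)2.2-only and 14.0% (11.5 to 16.9) for Su(Hw)-only regions, and the interval of Shep-only regions overlapped those of CP190-only and Mod(mdg4)2.2-only regions. The excess on 2R was therefore shown against the regions without Shep as a whole and was not shown to be particular to the regions where Shep is alone. Fisher's exact test counts every region as independent, and neighbouring regions are not. Regions of 1 list are also not replicates, so the p-values of the chromosome tests cover at most counting error and may be too small.

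Shep-only regions were less often on X, at 129 of 812 (15.9%, 13.5 to 18.6), against 782 of 3846 regions without Shep (20.3%, 19.1 to 21.6), with an odds ratio of 0.740 (0.599 to 0.910, adjusted p = 0.0162, Fisher's exact test). This call was lost in 6 of 12 alternative settings, among them the Shep list limited to q of 0.05 or less (0.760, by Fisher's exact test with an adjusted p of 0.140) and the lists without CP190 (0.844, with 0.367). Against Shep regions with another factor, of which 19.1% (16.1 to 22.5) were on X, the odds ratio was 0.801 (0.599 to 1.07, adjusted p = 0.224, Fisher's exact test). The shares on 2L (15.8% against 17.5% of regions without Shep), 3L (16.3% against 18.6%) and 3R (27.3% against 23.7%) did not pass the threshold in the same family of Fisher's exact tests (adjusted p = 0.335, 0.224 and 0.108).

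**Figure D5:**
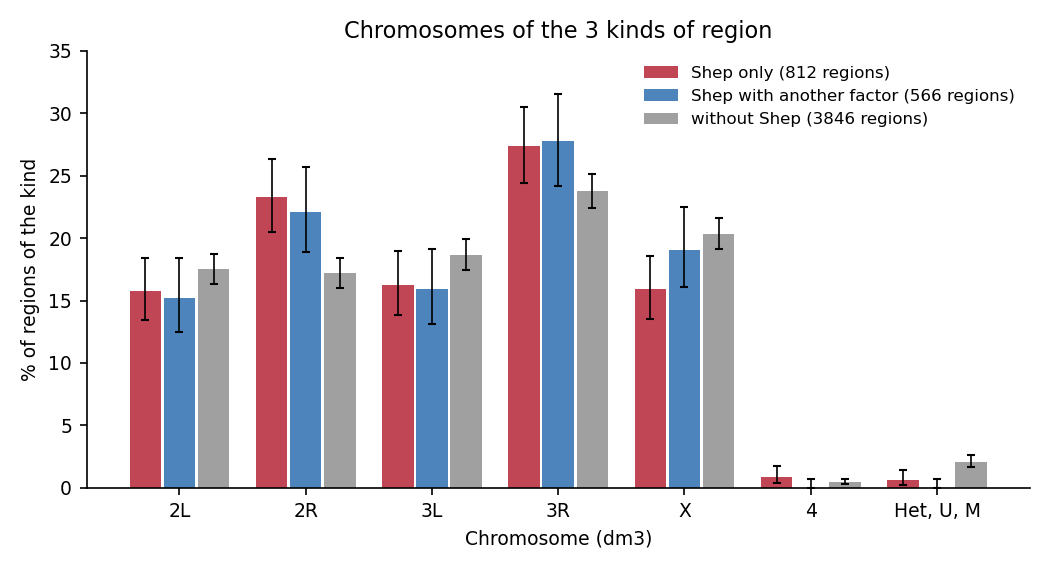
Percent of the 812 Shep-only regions, the 566 Shep regions with another factor and the 3846 regions without Shep on each chromosome arm, on chromosome 4 and outside the arms (Het, U and M sequences), with Wilson 95% intervals. Both kinds of Shep region stand above the regions without Shep on 2R (23.3% and 22.1% against 17.2%).

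Per length of arm the Shep-only regions were densest on 2R, at 8.97 per Mb, followed by 3R at 7.96 per Mb, and lay at 5.75 on X, 5.58 on 2L and 5.46 on 3L, with the arm taken to end at its last peak of any list. The Shep regions with another factor had the same order of the densest arms, with 5.93 per Mb on 2R and 5.63 on 3R, against 4.82 on X, 3.75 on 2L and 3.72 on 3L. Regions without Shep ran from 29.4 per Mb on 2L to 34.9 on X. Of the regions with Shep, Shep-only regions were between 54.4% (48.1 to 60.6) on X and 60.2% (54.7 to 65.5) on 2R. Median Shep scores in Shep-only regions were 110.0 on 2L, 106.1 on 2R, 104.8 on 3L, 99.4 on 3R and 102.8 on X. Along the arms the regions were evenly laid out. Of the 800 Shep-only regions on the arms, the 5 equal parts from telomere to centromere held between 157 and 163 each, and the part next to the centromere held 19.6% (17.0 to 22.5), against 17.4% (16.2 to 18.7) of the 3747 regions without Shep.

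On chromosome 4, a small and largely heterochromatic chromosome, and on the Het scaffolds, which hold pericentric repeat-rich sequence, all Shep regions were Shep-only. The Shep peaks there scored at most 98.7, below the median of 103.1 over all peaks in Shep-only regions. Chromosome 4 had 7 such regions and the scaffolds 5, and neither had a Shep region with another factor. Over all Shep regions the Shep-only share was 58.9%, and the interval for the 7 on chromosome 4 was 64.6 to 100%. Regions without Shep lay at 15.9 per Mb on chromosome 4, against 29.4 on 2L and 34.9 on X. For chromosome 4 the difference from 0 of 566 did not pass the threshold after adjustment (p = 0.0459, adjusted p = 0.129, Fisher's exact test), and neither did that for the scaffolds (adjusted p = 0.192). The 8 Shep peaks on chromosome 4 had scores of 85.7 to 98.7 and q-values of 0.0402 to 0.127, and 6 of the 8 had a q above 0.05. The strongest was chr4:680991-681474, with a score of 98.7 at 35728 bp from a CP190 peak.

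The regions chr4:522230-522713, chr4:525784-526267 and chr4:527302-528047 formed a cluster of Shep-only regions, the last of which joined 2 Shep peaks and ended 68 bp from a Mod(mdg4)2.2 peak. The remaining regions of the chromosome were chr4:226394-226877, at 135637 bp from the nearest other list, chr4:887498-887981 at 29819 bp and chr4:1052242-1052725 at 50515 bp. The 5 scaffold regions had scores of 86.7 to 94.3. They were chr2LHet:34468-34951, where the nearest peak of another list, 332926 bp away, is one of Rump, chr2RHet:3095478-3095961 and chr2RHet:3197824-3198307 at 251728 and 354074 bp from Mod(mdg4)2.2, chr3LHet:914457-914940 at 219728 bp from Mod(mdg4)2.2, and chr3RHet:415802-416285 at 19327 bp from Su(Hw). The 3 Shep-only regions farthest from any other list, at 354074, 332926 and 251728 bp, were all on these scaffolds.

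Outside the arms the Shep-only share was lower than that of the regions without Shep, at 5 of 812 (0.616%, 0.263 to 1.43) against 81 of 3846 (2.11%, 1.70 to 2.61), with an odds ratio of 0.288 (0.0908 to 0.704, adjusted p = 0.0162, Fisher's exact test). Among single-protein regions the share was 0.199% (0.0547 to 0.724) for CP190-only, 1.68% (0.719 to 3.87) for Mod(mdg4)2.2-only and 3.41% (2.24 to 5.16) for Su(Hw)-only regions, and the interval for CP190-only regions overlapped that for Shep-only regions. The call against regions without Shep did not hold without the Rump list (odds ratio 0.464, adjusted p = 0.218) or with peaks resized to 2000 bp (0.346, adjusted p = 0.0941, Fisher's exact test).

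Shep-only regions often had another Shep region near them. The nearest other region with Shep was within 1 kb for 92 of the 812 (11.3%, 9.33 to 13.7), within 5 kb for 237 (29.2%, 26.2 to 32.4) and within 10 kb for 332 (40.9%, 37.6 to 44.3). The values for Shep regions with another factor were 7.95% (5.99 to 10.5), 21.6% (18.4 to 25.1) and 37.1% (33.2 to 41.2). Median distances were 15182 and 18691 bp. The intervals of the 2 kinds did not overlap at 5 kb and overlapped at 1 and 10 kb, and the difference was not tested. Regions with another factor had a median width of 2010 bp against 484 bp, and 7.07% against 2.71% held more than 1 Shep peak. Peaks joined in a region do not count as neighbours, and the part of this in the difference was not tested. The shares expected of randomly placed regions were not computed. With the Shep list limited to q of 0.05 or less, the share of Shep-only regions with a Shep neighbour within 10 kb was 30.2%, and with a limit of 0.01 it was 16.8%, in settings that also leave fewer Shep peaks to be near.

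The neighbour itself was a Shep-only region for 490 of the 809 Shep-only regions that had another Shep region on the same sequence (60.6%, 57.2 to 63.9), and for 324 of the 566 Shep regions with another factor (57.2%, 53.1 to 61.3). Shep-only and shared sites were thus interspersed, since both kinds had a Shep-only neighbour about as often as the 58.9% that Shep-only regions make up of all Shep regions. The 812 regions were also joined to one another at gaps of up to 5 kb, with shared Shep regions left out of account. This gave 642 with no other Shep-only region that near, 65 pairs, 12 groups of 3 and 1 group of 4. The group of 4, at chr3R:4878034-4883706, spans 5673 bp, and its regions have scores between 84.4 and 101.3. Between its members lay a Shep region with Mod(mdg4)2.2 at chr3R:4878695-4879308, with a Shep score of 162.1, and a Mod(mdg4)2.2-only region at chr3R:4882743-4883046.

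Counted in windows of 100 kb, 526 windows held a Shep-only region, 339 of them exactly 1, and 7 windows held 5 or more. The fullest was chr3R:12000001-12100000 with 8 Shep-only regions, whose scores ran from 83.4 to 169.4, beside 3 Shep regions with another factor and 8 regions without Shep. Its strongest member was chr3R:12058469-12058952. The window also held 3 regions with Mod(mdg4)2.2, Su(Hw) and CP190, at chr3R:12005339-12007400, chr3R:12017201-12019276 and chr3R:12030155-12032411, and a Rump-only region at chr3R:12077362-12077617.

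The next windows were chr3L:3400001-3500000 and chr3R:4800001-4900000, with 6 Shep-only regions each. In the window on 3L the Shep-only scores ran from 83.4 to 121.1, and 3 Shep regions with another factor, all of them with Su(Hw), lay among them. In the window on 3R the scores ran from 84.4 to 101.3, and the group of 4 described above made up most of it. All 3 windows held Shep-only regions, at least 1 shared Shep region and regions without Shep, and in the fullest one the 4 Shep-only regions between chr3R:12047036 and chr3R:12058952 followed each other with no other region between them.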

How the data were processed

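Deposited peak lists of 5 proteins, from 8 ChIP and 2 input libraries of Kc167 cells, were used. Per the submitters' processing notes, the tools were Bowtie 0.12.8, Trimmomatic 0.20, Picard 1.77, cutadapt 1.1 and bedtools 2.17.0, and the build was dm3. Library depths, how a protein's antibodies were combined, and the caller of peaks with its cutoff are not given in the sources used. The lists deposited by the authors hold starts (counted from 0) and ends. Those of Shep, Rump and Mod(mdg4)2.2 also hold a signal value per peak, called score here, and the −log10 of a q-value by the narrowPeak layout, as deposited.

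Peaks overlapping by at least 1 bp were merged. Distances run from edge to edge. Chromosome shares were compared with Fisher's exact test, two-sided, in 14 tests adjusted by Benjamini-Hochberg (threshold 0.05). Conditional 95% intervals accompany odds ratios, and 0.5 was added to each count where one was 0. Merging was tested on simulated peaks at a fixed spacing, and the tests on regions with independently drawn chromosomes. Clustering of regions was not simulated. Members, lists and tests were chosen with earlier results of these data known. Regions named were those of highest and lowest score, nearest to and farthest from another list, on chromosome 4 or scaffolds, and in the fullest windows. The 3 complete regions, the Rump-only region, the group of 4 and the strongest region of a window were named after their values were seen, as was the joined region of highest score. Calculations used SciPy 1.17.1, pandas 2.3.3, NumPy 2.4.6 and matplotlib 3.10.9 in Python 3.11.15.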

Additional observations from a re-analysis of the deposited data

How the results depend on the processing

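Across 12 alternatives the excess of Shep-only regions on 2R over regions without Shep kept its call, with odds ratios from 1.39 to 1.70. The call for X (0.740) was lost with peaks up to 500 bp apart merged (0.779), peaks resized to 2000 bp (0.775), Shep q up to 0.05 (0.760) or 0.01 (0.728), the upper part of Shep scores (0.733) and no CP190 list (0.844), and that outside the arms with 2000 bp (0.346) and without Rump (0.464). The odds ratio for 3R against regions without Shep passed only without Su(Hw) (1.25, adjusted p = 0.0387, Fisher's exact test). The cause of these changes was not tested.

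Directions turned only where no call was made. Against Shep regions with another factor these were 3L with merging to 1000 bp (0.985), 2000 bp (0.984) and q up to 0.05 (0.960) or 0.01 (0.945), 3R with 300 bp (1.02) and on the arms alone (1.0006), and 2R without CP190 (0.999). Against regions without Shep they were chromosome 4 with q up to 0.05 (0.848), 0.01 (0.345) and the upper part of scores (0.295), and with that part also 2L (1.05) and 3R (0.959).

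The number of regions was 520, 321 and 371 with q up to 0.05, q up to 0.01 and the upper part of scores, and within 1.5 times of 812 otherwise. With these 3 settings the median score was 123, 141 and 136, the share of q above 0.05 was 0 by construction, and 30.2%, 16.8% and 21.6% had a Shep neighbour within 10 kb. That last share was 34.6% with merging to 1000 bp and 34.9% with 2000 bp. The Shep-only share of Shep regions was 55.1% and 52.0% with merging to 500 and 1000 bp, 70.0% and 52.0% with 300 and 2000 bp, 54.2%, 52.6% and 52.3% with the Shep filters, and 68.7%, 62.8% and 73.3% without Mod(mdg4)2.2, Su(Hw) and CP190. The share with another list within 10 kb was 58.1% with merging to 1000 bp, and 58.2%, 58.2% and 43.4% without those lists. The median score was 106 without Mod(mdg4)2.2. The interval of the Shep-only share was 49.2 to 54.7 with merging to 1000 bp and 49.3 to 54.7 with 2000 bp.

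Leaving out a library was not run: each list was deposited already combined. No paired analysis was possible because the deposited lists carry no replicate values. Unknown depth limits what the absence of another protein's peak means: a site below a list's threshold is not shown to be unbound.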
